A study of Mus musculus with 18 samples.

Results

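Transcripts of Nmrk2 and 9 other genes that make, move or consume NAD were followed in mouse cardiac ventricles after deletion of serum response factor (SRF), which activates muscle genes and genes induced by growth factors. The genes were Nmrk2, Nmrk1, Nampt, Nmnat1, Nmnat3, Nnt, Sirt1, Sirt3, Parp1 and Cd38, and every probe set that the platform annotation gives to them was taken. This gave 20 of 45037 probe sets, for 9 of the 10 genes. Of these, 16 passed the filter on low signal and were tested among 27022. The 4 others, 2 of Nmrk1, 1 of Nmnat3 and 1 of Parp1, lay below it, and no probe set was listed for Cd38, which was not analysed here.

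The series compared SRFHKO mice, in which Srf is deleted by tamoxifen, with control littermates carrying the SRF-flex2neo allele. The 6 groups were 4 SRFHKO and 2 control hearts at day 8 after tamoxifen, 3 SRFHKO and 3 control hearts at day 25, and 3 SRFHKO and 3 control hearts at day 25 given phenylephrine (PE), which stimulates alpha-1 adrenergic receptors. All mice, controls included, were males aged 10 weeks, labelled strain CR7BL6, and received 0.7 mg tamoxifen on 3 days. PE was delivered by osmotic minipump between day 10 and day 25, at 80 mg/kg/day. The labels used here do not name the Cre transgene or the cells in which it acts.

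NAD carries electrons in the oxidation of fuels and is also consumed as a substrate by sirtuins, poly(ADP-ribose) polymerases and glycohydrolases such as Cd38. Cells rebuild it from nicotinamide through Nampt, or from nicotinamide riboside through the kinases Nmrk1 and Nmrk2. Both routes give nicotinamide mononucleotide, which the Nmnat enzymes turn into NAD. Nmrk2, formerly named Itgb1bp3, is known as the muscle form of the riboside kinase, while Nampt serves the main salvage route in most tissues.

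Nmrk2 lies on mouse chromosome 10, from 81198170 to 81202265 (GRCm38.p6), and was read by probe set 1453898_at. Its promoter window is shown because it is the member that responded most and because SRF binds the CArG box, a run of A and T between CC and GG. The RefSeq window runs from 250 bases before to 50 after a start site, at chr10:81201988-81202287 on the minus strand. That start site lies inside the gene span given above, and so does most of the window. Capitals mark runs within 1 mismatch of a CArG box, and CANNTG, the E-box read by basic helix-loop-helix factors.
Nmrk2: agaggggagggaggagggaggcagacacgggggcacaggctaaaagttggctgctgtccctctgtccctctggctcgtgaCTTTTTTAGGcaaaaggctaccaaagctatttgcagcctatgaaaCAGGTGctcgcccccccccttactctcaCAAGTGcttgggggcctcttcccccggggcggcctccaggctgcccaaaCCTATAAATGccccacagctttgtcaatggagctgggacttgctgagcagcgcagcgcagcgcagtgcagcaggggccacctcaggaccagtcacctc

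The Nmrk2 window held 0 exact CArG boxes, which 1.63% of 32851 RefSeq mouse promoter windows of the same length hold. It held 2 runs within 1 mismatch of one, beginning 170 and 48 bases before the start site of the window. Of all windows, 21.1% hold at least 1 such run. The run nearer the start overlaps a TATAAA, which begins 46 bases before the start and is found in 13.6% of windows. The 2 CANNTG began 125 and 97 bases before the start, and 72.3% of windows hold at least 1. Both strands were searched, and a match is a run of letters and not a bound site. The Nmrk1 window held none of these motifs. Windows were found for 9 of the 10 genes, 11 windows in all, and Nnt had none in the table used.

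Signal is given as log2(scaled signal + 2), where each array was scaled to a common trimmed mean. Before scaling, day 8 arrays were brighter than day 25 arrays, with trimmed means of 110 to 148 against 46.6 to 85.4. An effect of day and one tied to that brightness cannot be told apart, and no level is compared between days. At day 25 SRFHKO arrays averaged 75.6 ± 6.89 without PE and 79.9 ± 4.94 with PE, against 57.3 ± 10.96 without PE and 65.1 ± 11.6 with PE in control arrays (SD, n = 3 each). The ratio of 3' to 5' Gapdh signal did not overlap between genotypes at day 8 (0.850 to 0.936 in SRFHKO, 1.01 to 1.02 in control arrays) or at day 25 without PE (0.820 to 0.835 in SRFHKO, 0.868 to 0.945 in control arrays). Correlations between arrays lay between 0.916 and 0.968. The titles call the replicates biological, and the tests measure the spread between these hearts.

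Nmrk2 was higher in SRFHKO hearts at both days and with PE. At day 8 its log2 signal was 8.86, 7.66, 7.69 and 9.53 in the 4 SRFHKO hearts, against 5.70 and 4.93 in the 2 control hearts. At day 25 it was 10.56, 9.75 and 10.16 in SRFHKO hearts, against 5.97, 5.45 and 6.09 in control hearts. With PE it was 10.66, 10.79 and 10.64 in SRFHKO hearts, against 7.94, 7.82 and 7.57 in control hearts. The genotypes did not overlap in any of the 3 settings, and the SRFHKO hearts of day 8 were spread most widely (SD 0.92, n = 4).

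**Figure D1:**
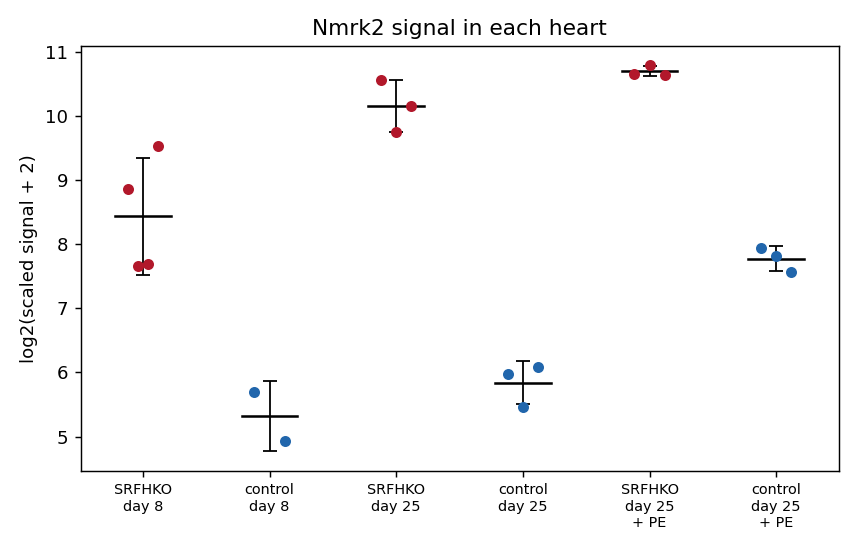
Nmrk2 signal in each heart as log2(scaled signal + 2), by group; points are hearts, the wide bar is the group mean and the whiskers are 1 SD. SRFHKO hearts lay above control hearts at day 8, at day 25 and at day 25 with PE, and control hearts with PE lay between 7.57 and 7.94.

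The SRFHKO minus control difference of Nmrk2 in log2 was 3.12 ± 0.38 at day 8 (SE, limma adjusted p = 0.00348), 4.32 ± 0.36 at day 25 (adjusted p = 3.78e-06) and 2.92 ± 0.36 with PE (adjusted p = 0.000421). These are folds of 8.69 (95% interval 4.99 to 15.1), 20.0 (11.8 to 33.7) and 7.59 (4.50 to 12.8). Averaged over the 3 settings the difference was 3.45 ± 0.21 (adjusted p = 1.93e-08), and an exact permutation test that exchanged genotypes within settings gave two-sided p = 0.00017, the smallest its 6000 regroupings allow. Among rises, that of Nmrk2 ranked by size 3 of 27022 probe sets at day 8, 2 at day 25 and 4 with PE. The day 8 value passed the threshold with each array left out in turn, but not when the day 8 arrays were fitted alone (adjusted p = 0.0801) or with the Gapdh ratio as a covariate (3.42, adjusted p = 0.167).

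Of the 16 probe sets, Nmrk2 was the 1 called at day 8, where 0.170% of all probe sets were called, at day 25, where 2.18% were (1.25% higher, 0.936% lower), and with PE, where 0.929% were (0.411% higher, 0.518% lower). In the average over settings 2 were called, Nmrk2 higher and Sirt3 lower, against 4.98% of all probe sets (2.89% higher and 2.09% lower). The median difference of the 16 was -0.10 at day 8, -0.10 at day 25 and -0.17 with PE, beside 0.04, -0.04 and -0.01 over all probe sets.

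**Figure D2:**
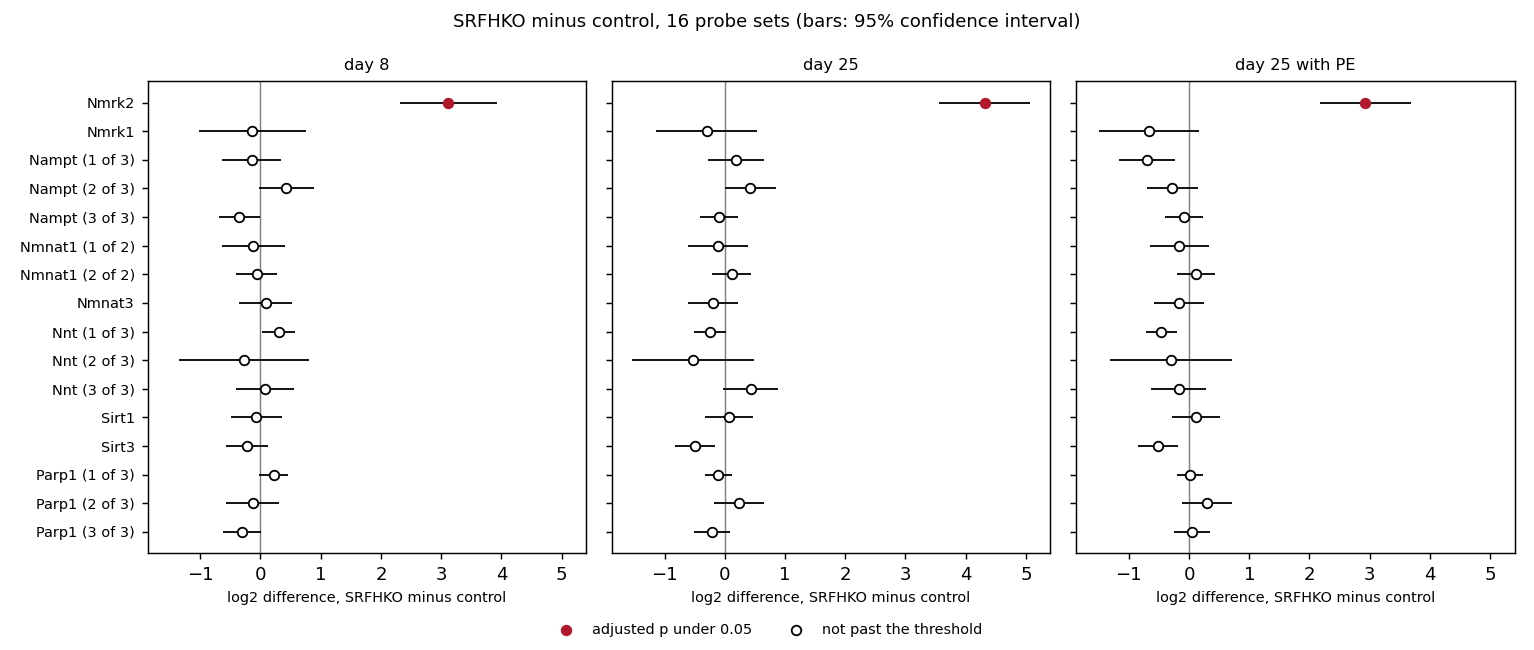
SRFHKO minus control differences in log2 for the 16 probe sets at day 8, day 25 and day 25 with PE; points are estimates, bars are 95% confidence intervals and filled points passed the adjusted threshold of 0.05. Only Nmrk2 is filled in these panels, at 3.12, 4.32 and 2.92.

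PE and Nmrk2 were compared within day 25. In control hearts Nmrk2 averaged a scaled signal of 218 ± 28.4 with PE and 56.3 ± 12.8 without (SD, n = 3 each), and the hearts did not overlap. The log2 difference of 1.94 ± 0.36 did not pass the threshold (limma adjusted p = 0.085), and 0 of 16 member probe sets did, where 0.0259% of all were called. At an unadjusted p under 0.05 there were 4 of 16, against 10.1% of all probe sets. They were Nmrk2, higher, and the 3 tested probe sets of the single gene Parp1, lower. In control hearts the Nmrk2 difference passed with the replicate block (limma adjusted p = 0.00207) and with array brightness as a covariate (2.15, adjusted p = 0.0382). It also passed when only these 6 arrays were fitted (adjusted p = 0.0117).

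In SRFHKO hearts Nmrk2 averaged 1661 ± 94.8 with PE and 1171 ± 328 without (SD, n = 3 each). The log2 difference was 0.54 ± 0.36 (95% interval -0.21 to 1.29, limma adjusted p = 0.683), and 0 of 16 were called against 0.185% of all. At an unadjusted p under 0.05 there were 3 of 16, against 9.81% of all. Counting only the brightest probe set of each gene, it was 1 of 9. Averaged over genotypes, PE raised Nmrk2 by 1.24 ± 0.25 (limma adjusted p = 0.0311, exact permutation p = 0.005, the smallest of 400 regroupings), the 1 member called where 0.551% of all were. Leaving out any 1 of 8 of the 12 arrays ended this call, with adjusted p up to 0.0941 without SRFHKO PE replicate 2.

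The genotype difference of Nmrk2 with PE minus without PE was -1.40 ± 0.51 (limma adjusted p = 0.598, unadjusted 0.0131), and that at day 25 minus day 8 was 1.20 ± 0.53 (adjusted p = 0.358). Neither passed, and no member was called for either, where 0.00370% and 0.0407% of all probe sets were. At an unadjusted p under 0.05 there were 3 of 16 for PE, against 7.40% of all, and 2 of 16 for day, against 12.3% of all. Counting only the brightest probe set of each gene, it was 1 of 9 for PE, Nmrk2 itself. The order of the Nmrk2 group means within day 25, from low to high, was control, control with PE, SRFHKO and SRFHKO with PE, and neighbouring groups in that order did not overlap.

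**Figure D3:**
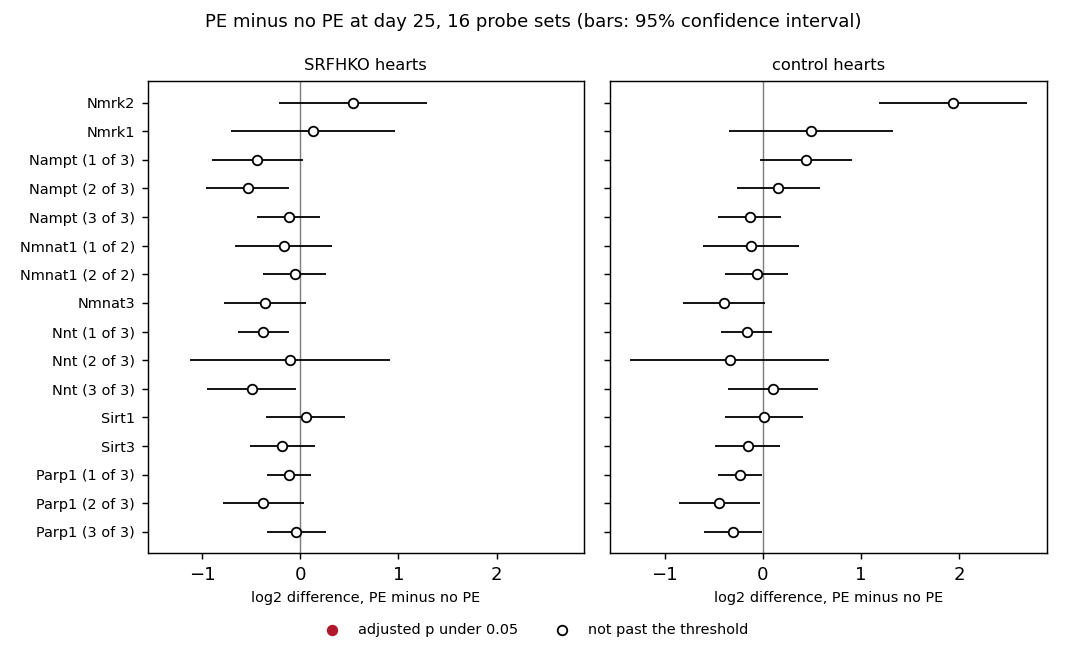
PE minus no PE differences in log2 at day 25 for the 16 probe sets, in SRFHKO and in control hearts, with 95% confidence intervals. No point passed the adjusted threshold of 0.05, and Nmrk2 in control hearts stood at 1.94.

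Markers of several cell types differed between genotypes beside the Nmrk2 rise. In ventricle RNA, fewer cells of a type and less RNA per cell cannot be told apart. The cardiomyocyte markers are themselves muscle genes, the class that SRF activates, and its direct part in them was not tested. The summed scaled signal of 16 cardiomyocyte markers was 112029 to 133846 in SRFHKO and 147628 to 161677 in control hearts at day 25, and 110817 to 118088 in SRFHKO and 131289 to 156026 in control hearts with PE, while at day 8 the ranges overlapped. Myl3, Tnnc1 and Ckm were the 3 of 16 called lower at day 25, and the same 3 were with PE. The median difference of the 16 was -0.29 at day 25 and -0.27 with PE. Sizes varied, and at day 25 mean Ckm was 1448 in SRFHKO and 5753 in control hearts. Actn2 was 4943 in SRFHKO and 5051 in control hearts, and only Pln had a higher mean in SRFHKO hearts (10458 against 10188). In the average over settings, which holds the Sirt3 call, 7 of 16 were called lower (Myh6, Actc1, Myl3, Tnnc1, Atp2a2, Ttn and Ckm) and 0 higher.

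Of 20 skeletal muscle markers, 13 lay below the filter, among them the fast myosins Myh1, Myh2 and Myh4. The sum of the 6 that passed, without the SRF target Acta1, was 907 to 1336 in SRFHKO and 371 to 515 in control hearts at day 25, 1148 to 3173 in SRFHKO and 656 to 944 in control hearts with PE, and 225 to 389 in SRFHKO and 349 to 393 in control hearts at day 8. Of the 6, Myl1, a myosin light chain, had the highest mean at day 25, at 959 in SRFHKO and 193 in control hearts. It was the 1 marker called higher there. None of the others of the 6 passed the threshold at day 25. Means were lower in SRFHKO than in control hearts for Mylpf (21.5 against 31.9), Tnni2 (11.9 against 19.2), Casq1 (54.5 against 58.6) and Tnnt1 (84.0 against 124). Atp2a1 had a higher mean in SRFHKO hearts, at 15.0 against 12.4 in control hearts. The median difference of the 7 tested markers, Acta1 included, was -0.49.

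Summed signals of some other cell types did not overlap between genotypes in some settings, and only those sums are given. With so few hearts, ranges can part by chance, and the sums were not tested. The sums of B cell and plasma cell, T and NK cell, erythroid and adipocyte markers overlapped in every setting. At day 8 the sum of 12 fibroblast markers was 11717 to 14408 in SRFHKO and 15303 to 18653 in control hearts. The sum of 10 smooth muscle and pericyte markers was 8863 to 9427 in SRFHKO and 10284 to 10946 in control hearts, and that of 6 atrial markers 3500 to 6912 in SRFHKO and 7260 to 7685 in control hearts. The sum of 2 liver markers was 43.7 to 77.9 in SRFHKO and 116 to 131 in control hearts. None of these markers was called at day 8. Bright genes weigh most in such sums, and members of a list went both ways. Mean Nppa was 3916 in SRFHKO and 6390 in control hearts, while Sln and Stard10 were higher in SRFHKO hearts. Acta2 was 1035 in SRFHKO and 1821 in control hearts, while Tagln, Myh11, Abcc9 and Smtn were higher in SRFHKO hearts. Col3a1 was 1199 in SRFHKO and 2575 in control hearts, while Gsn, Pdgfra, Tcf21 and Fbln1 were higher in SRFHKO hearts.

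At day 25 the sum of 12 endothelial markers was 8786 to 9690 in SRFHKO and 9914 to 10349 in control hearts, and that of 3 lung markers was 27.5 to 37.1 in SRFHKO and 49.1 to 104 in control hearts. Cldn5, an endothelial junction protein, Napsa, an aspartic protease of lung, and Igha, the constant region of immunoglobulin A, were called lower at day 25. Napsa was dim, with means of 3.23 in SRFHKO hearts, below the filter limit of 9.94 in scaled signal, and 17.4 in control hearts. Igha had means of 110 in SRFHKO and 1291 in control hearts. Of the other B cell and plasma cell markers, Jchain, Pax5 and Cd22 had lower means in SRFHKO hearts. Ighm had a higher one, at 136 in SRFHKO and 68.0 in control hearts. With PE the sum of 14 macrophage and monocyte markers was 3398 to 3814 in SRFHKO and 3835 to 4384 in control hearts. Of these 14, 0 were called with PE, and their median difference was -0.12. The scaled 18S signal at day 8 was 705 to 1402 in SRFHKO and 2426 to 3069 in control hearts. The part of these markers and signals in the Nmrk2 and Sirt3 differences was not tested, other than with array brightness and the Gapdh ratio as covariates.

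Nmrk1, the more widely expressed riboside kinase, was dim in every group. Its tested probe set had log2 means of 3.87 ± 0.86 (SD, n = 4) in SRFHKO and 4.01 ± 0.09 (n = 2) in control hearts at day 8, near the filter limit of 3.58. At day 25 they were 3.88 ± 0.13 in SRFHKO and 4.18 ± 0.27 in control hearts, and with PE 4.01 ± 0.03 in SRFHKO and 4.67 ± 0.11 in control hearts (SD, n = 3 each). Its genotype difference averaged -0.37 ± 0.23 (limma adjusted p = 0.417). The PE difference averaged over genotypes was 0.31 (limma adjusted p = 0.716), with an exact permutation p = 0.005.

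Nampt, the enzyme that limits nicotinamide salvage, was read by 3 probe sets that disagreed. With PE, 1417190_at gave 9.06, 9.42 and 9.57 in SRFHKO hearts, against 10.01, 9.79 and 10.33 in control hearts. These did not overlap, but the difference of -0.69 ± 0.22 did not pass (limma adjusted p = 0.156). The brightest, 1455320_at, differed by -0.08 ± 0.15 and 1448607_at by -0.27 ± 0.20 in the same comparison. At day 25 without PE the 3 differences were 0.19, -0.10 and 0.42, in the order 1417190_at, 1455320_at and 1448607_at.

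Nmnat1 and Nmnat3, the nuclear and the mitochondrial enzyme of that step, showed no called difference. The brighter Nmnat1 probe set differed by 0.06 ± 0.09 between genotypes on average (95% interval -0.13 to 0.25), and that of Nmnat3 by -0.09 ± 0.12 (-0.34 to 0.15). With PE the Nmnat3 signal was lower by 0.38 ± 0.14 on average over genotypes (limma adjusted p = 0.271), with an exact permutation p = 0.005. That is the smallest possible in this test, which was run on 9 genes and also gave 0.005 for Nmrk2 and Nmrk1 and 0.01 for Nnt and Parp1.

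**Figure D4:**
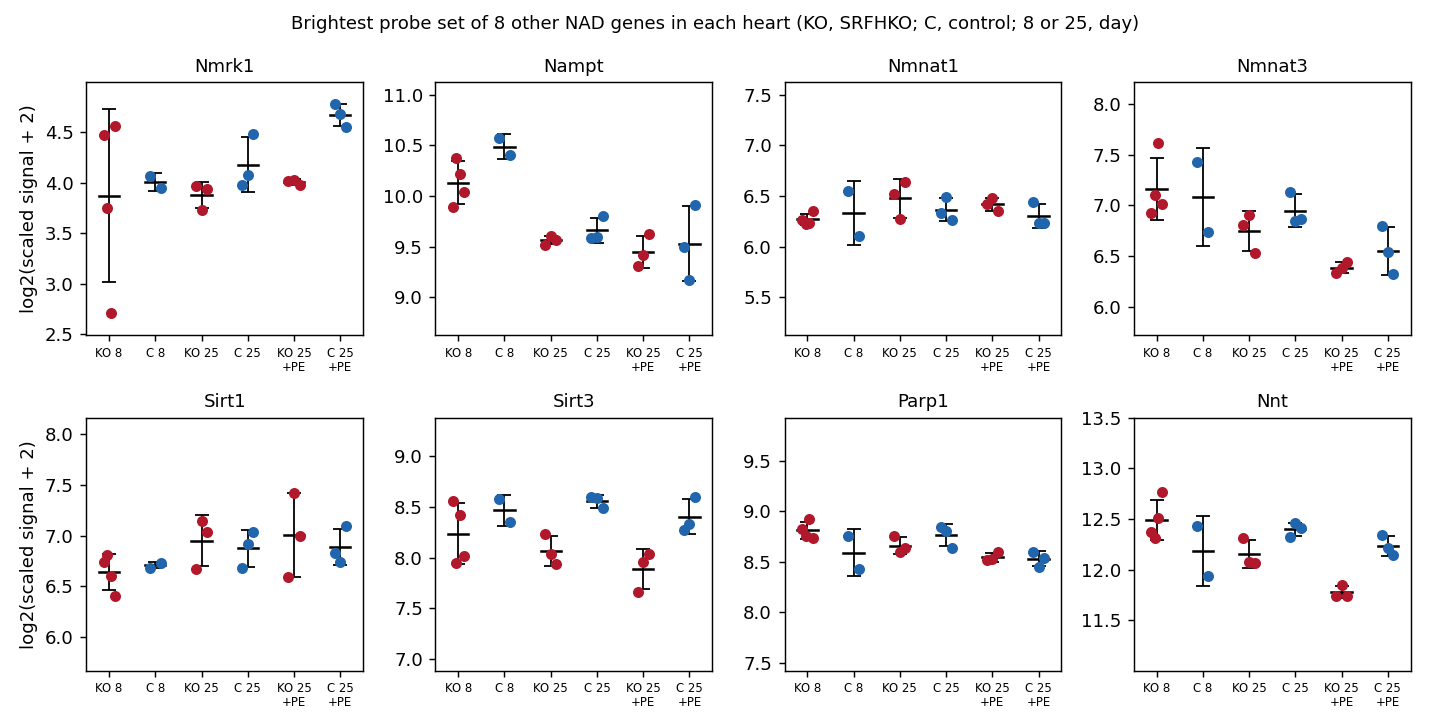
Log2(scaled signal + 2) of the brightest probe set of 8 other genes in each heart, by group (KO, SRFHKO; C, control), with the mean and 1 SD; every panel spans the same 2.5 log2 units. Sirt3 in SRFHKO hearts lay between 7.94 and 8.23 at day 25, below the 8.48 to 8.60 of control hearts.

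Sirt3, the main deacetylase of mitochondrial proteins, was lower in SRFHKO hearts. At day 25 its log2 signal was 8.23, 8.04 and 7.94 in SRFHKO hearts, against 8.60, 8.59 and 8.48 in control hearts. With PE it was 7.66, 7.96 and 8.03 in SRFHKO hearts, against 8.27, 8.34 and 8.60 in control hearts. Both comparisons were without overlap, while at day 8 the genotypes overlapped. The averaged difference was -0.41 ± 0.09 (limma adjusted p = 0.0149, exact permutation p = 0.0022), and the single settings did not pass (-0.23, -0.49 and -0.52, with adjusted p of 0.659, 0.11 and 0.131). The averaged call ended with array brightness as a covariate (-0.42, limma adjusted p = 0.0932) and with the Gapdh ratio (-0.51, limma adjusted p = 0.445). That ratio did not overlap between genotypes at day 8 or at day 25 without PE. With it, 11 of all probe sets were called in the average, against 1346 without it.

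Sirt1, the nuclear deacetylase, differed by 0.04 ± 0.11 on average (95% interval -0.20 to 0.28). Parp1, the polymerase activated by DNA breaks, was read by 3 tested probe sets whose averaged differences were 0.04 ± 0.06, 0.14 ± 0.12 and -0.16 ± 0.08, none past the threshold. With PE in control hearts the 3 differed by -0.23, -0.44 and -0.31, with unadjusted limma p of 0.0424, 0.0375 and 0.0452 and adjusted p of 0.479, 0.462 and 0.486.

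Nnt, the transhydrogenase that makes NADPH from NADH in mitochondria, was read by 3 probe sets. With PE 1416105_at was 11.74, 11.84 and 11.74 in SRFHKO hearts, against 12.34, 12.22 and 12.15 in control hearts. The groups did not overlap and the difference of -0.46 ± 0.12 did not pass (limma adjusted p = 0.0864). Its averaged difference was -0.13 ± 0.07 (adjusted p = 0.332), and over the day 25 settings alone, an average added after seeing the data, -0.35 ± 0.09 (adjusted p = 0.0221). The other probe sets, 1432608_at and 1456573_x_at, differed with PE by -0.30 ± 0.49 and -0.17 ± 0.22. C57BL/6J mice carry a known deletion in Nnt, and where these probe sets lie relative to it was not analysed here.

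A further 87 genes that passed the filter were read, 1 probe set each. Besides other genes of NAD metabolism they held 11 regulators reported for Nmrk2 or Nampt, among them Hif1a and Ppara. They also held 7 integrin partners, among them Itgb1bp2. No gene was called at day 8. At day 25 Hif1a, a transcription factor of the hypoxia response, rose by 0.82 ± 0.16 (limma adjusted p = 0.0159), and Macrod1, Got2 and Itgb1bp2 fell, by 0.59, 0.48 and 1.68, beside 2.18% of all probe sets called. With PE, 4 genes fell, which were Gnmt (-1.26), Got1 (-0.59), Ppara (-1.23) and Itgb1bp2 (-2.01), beside 0.929% of all. The median of the 87 was 0.02 at day 8, -0.07 at day 25 and 0.01 with PE.

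In the average over settings 4 of 87 rose and 6 fell, beside 4.98% of all probe sets called. Of 12 NADH shuttle genes, 3 fell, which were Mdh2 (-0.24 ± 0.05), Got1 (-0.26 ± 0.07) and Got2 (-0.30 ± 0.06), the malate dehydrogenase and aminotransferases of the malate-aspartate shuttle. Of 8 genes of precursor supply, Nt5e and Nt5c2, nucleotidases that release nucleosides, rose by 0.71 ± 0.19 and 0.37 ± 0.08. Among regulators reported for Nmrk2 or Nampt, Hif1a rose by 0.51 ± 0.10 and Ppara, a receptor that drives fatty acid oxidation genes, fell by 0.53 ± 0.13. Macrod1, which removes ADP-ribose from proteins, fell by 0.38 ± 0.06. No gene passed among 6 other synthesis genes, 7 of nicotinamide methylation and breakdown, 11 NAD kinases and NADPH producers, 5 other sirtuins and 5 other glycohydrolases.

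Of 7 integrin partners, listed because of the older name of Nmrk2, Itgb1bp2 fell by 1.52 ± 0.12 and Itga7 rose by 0.36 ± 0.10. Itgb1bp2, the chaperone melusin, averaged 9.01 ± 0.37 in SRFHKO and 10.70 ± 0.14 in control hearts at day 25 (SD, n = 3 each). For PE, averaged over genotypes, Art3 was the 1 of 87 called (-0.41 ± 0.07, limma adjusted p = 0.0108).

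**Figure D5:**
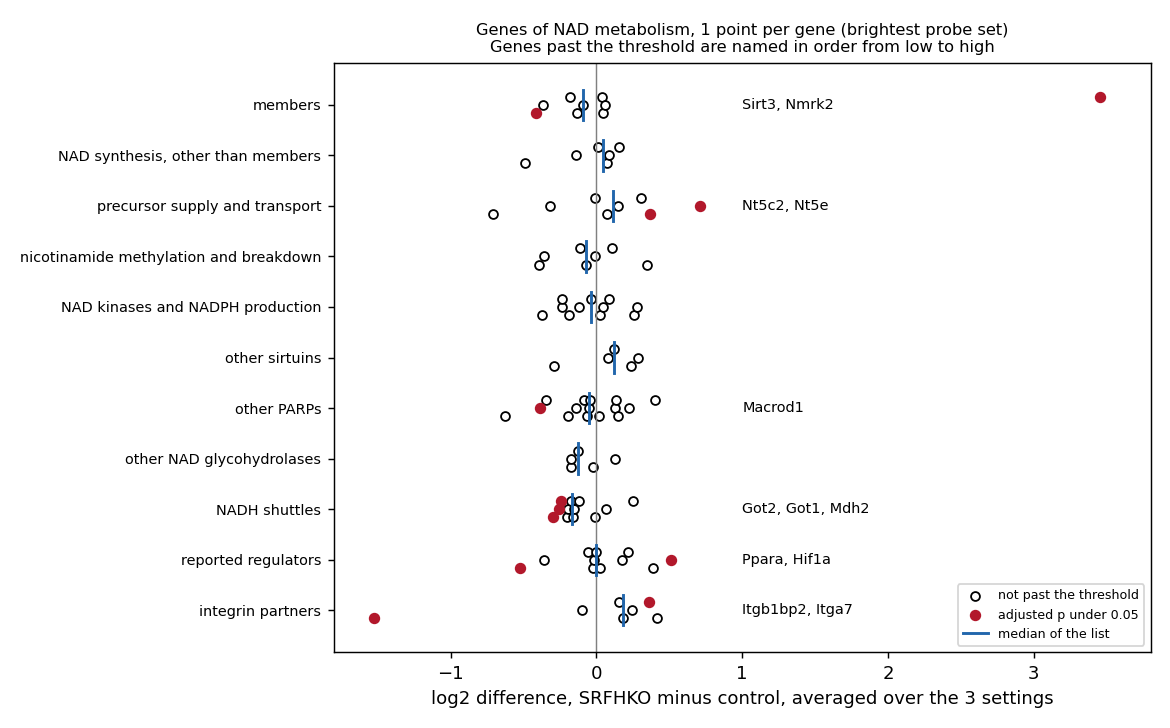
Differences in log2, SRFHKO minus control averaged over the 3 settings, for the members and for lists of other NAD genes, reported regulators and integrin partners. Each point is a gene, filled where it passed the adjusted threshold of 0.05, and the line is the median of the list. Nmrk2 stands at 3.45, and no other rise called in these lists exceeds 0.71.

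By Pearson r over the 18 arrays, among 12616 genes read by 1 probe set each, the genes most like Nmrk2 were Abhd3 (0.90), 1110065P20Rik (0.89), Ciao2b (0.89), Twsg1 (0.89), Tcea1 (0.89), Il13ra1 (0.88), Jpt1 (0.87), Chmp2b (0.86), Pno1 (0.86) and Grb2 (0.86). The most opposite were Plin3 (-0.93), Gstp1 (-0.90), As3mt (-0.87), Ces1d (-0.87) and Ptges3l (-0.86). The arrays share genotype, day and brightness, and the r of deviations from group means was 0.14 for Abhd3, 0.71 for Pno1 and -0.53 for Plin3. Among the other members Sirt3 had the r farthest from 0 (-0.75), and 0.05 for deviations.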

How the data were processed

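RNA of 18 ventricle samples was hybridised to Affymetrix arrays as biotin-labelled cRNA, per the labels' protocols. The deposited table holds a linear intensity for each of 45101 probe sets, which the authors obtained with GCOS, per the submitters' processing notes. The sources used here do not give its version or signal algorithm. Each array was scaled to a common 2% trimmed mean of 90.6, and log2(scaled + 2) was taken, so fold changes of dim genes are understated. The 64 control probe sets and those with a mean below the 40th percentile (log2 3.58) were left out. limma 3.58.1 in R 4.3.3 fitted 1 mean per group with an intensity trend, with 9 contrasts adjusted by Benjamini-Hochberg over 27022 probe sets at a threshold of 0.05. The number of arrays limits the precision. Gene names came from the platform annotation and RefSeq. Of the probe sets, 34945 had 1 symbol, 932 several and 9160 none. Steps were tested on simulated data. Genes named were the members, list genes past the threshold, and the 10 most and 5 least like Nmrk2 by r. The members and lists were chosen with earlier results of these data known. Samples with the same replicate number were not treated as pairs.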

Additional observations from a re-analysis of the deposited data

How the results depend on the processing

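The genotype difference of Nmrk2 kept its direction under every alternative run, and 0 of 174 Nmrk2 values reversed. Leaving out 1 array at a time gave 2.73 to 3.50 at day 8, 4.12 to 4.52 at day 25 and 2.82 to 3.01 with PE, all past the threshold. The day 8 call ended when only the groups compared were fitted (3.12, adjusted p = 0.0801, limma) and with the Gapdh 3'/5' ratio as a covariate (3.42, adjusted p = 0.167), with 0 members called in each. The PE difference of Nmrk2 in control hearts passed with the replicate block (1.94, adjusted p = 0.00207), with brightness as a covariate (2.15, adjusted p = 0.0382) and with only the groups compared (1.94, adjusted p = 0.0117), with 1 member called in each. Averaged over genotypes it spanned 1.14 to 1.34 without 1 array, with 0 to 1 members called. For the averaged genotype difference, 1 member was called with brightness and 1 with the Gapdh ratio as a covariate. The Gapdh ratio and the average over day 25 alone were chosen after seeing the data. That ratio did not overlap between genotypes at day 8 or at day 25 without PE. The labels do not say that a replicate number marks a shared litter, batch or day. Deviations from group means correlated at -0.045 to 0.074 between arrays of the same number (mean 0.013) and at -0.074 to 0.056 between other arrays (mean -0.006), so the numbers were not taken as pairs. However, 12 of 18 arrays correlated best with their own number, a hint from the data of a tie by number. The share to be expected without a tie was not worked out. In every day 25 group, replicate 2 was the brightest array before scaling and replicate 3 the dimmest. Replicate 2 also had the lowest Gapdh ratio in each of those groups. At day 8 the brightest was replicate 1 in SRFHKO and replicate 2 in control hearts. The main fit did not take this tie into account. With the block, 6 probe sets were called at day 8 instead of 46, and 0 and 5 for the interactions with PE and with day. Over all alternatives the count of all probe sets called spanned 2 to 380 at day 8, 10 to 749 at day 25, 48 to 323 with PE and 11 to 1600 in the average. For PE it spanned 4 to 17 in control hearts, 2 to 116 in SRFHKO hearts and 64 to 239 in the average, and it spanned 0 to 4 and 0 to 80 for the interactions with PE and with day. The causes were not tested.

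Of 1383 values of the other members, 73 reversed, none past the threshold (smallest adjusted p = 0.719, limma). With the Gapdh ratio, Nampt gave 0.14 at day 8, 0.29 at day 25, 0.069 with PE, 0.16 averaged, 0.034 for PE in control hearts and -0.22 for the interaction with PE. The same covariate gave Nmnat3 0.082 averaged and -0.0895 for the interaction with PE, Sirt3 0.038 for that interaction, and Sirt1 -0.042 at day 25, -0.063 averaged and -0.038 for PE in control hearts. With brightness, Nampt gave 0.14 at day 25, 0.096 with PE and -0.044 for the interaction with PE, Nmnat1 -0.0028 for the same, Nmrk1 0.052 for the interaction with day and Sirt1 -0.0097 for PE in control hearts. Quantile normalization gave Nmnat1 -0.018 for the interaction with PE, Nmrk1 0.20 for that with day and Parp1 -0.0098 between genotypes with PE. Over day 25 alone Parp1 averaged -0.044.

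Without 1 array, the day 8 difference spanned -0.36 to 0.25 for Nmrk1, -0.28 to 0.16 for Nmnat1, -0.26 to 0.43 for Nmnat3 and -0.13 to 0.0083 for Sirt1. The averaged genotype difference spanned -0.017 to 0.13 for Nmnat1, -0.21 to 0.0196 for Nmnat3, -0.0297 to 0.11 for Sirt1 and -0.012 to 0.099 for Parp1. At day 25 Sirt1 spanned -0.026 to 0.22. With PE the genotype difference spanned -0.26 to 0.11 for Nampt, -0.094 to 0.32 for Sirt1 and -0.023 to 0.049 for Parp1. The PE difference in SRFHKO hearts spanned -0.16 to 0.024 for Nmnat1 and -0.16 to 0.26 for Sirt1. In control hearts it spanned -0.33 to 0.045 for Nampt, -0.13 to 0.0018 for Nmnat1 and -0.089 to 0.091 for Sirt1, and averaged over genotypes -0.072 to 0.14 for Sirt1. The interaction with PE spanned -0.16 to 0.21 for Nampt, -0.10 to 0.084 for Nmnat1, -0.084 to 0.15 for Nmnat3, -0.17 to 0.25 for Sirt1 and -0.10 to 0.082 for Sirt3. The interaction with day spanned -0.55 to 0.061 for Nmrk1, -0.050 to 0.40 for Nmnat1 and -0.63 to 0.059 for Nmnat3.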
